A study of Homo sapiens with 24 samples.

Results

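The DNAJ cochaperones were examined across the 4 treatments of an RNA-seq study of lung adenocarcinoma cells. Members were the protein-coding genes with a symbol that begins with DNAJA, DNAJB or DNAJC followed by a number, as listed in GENCODE V44. There were 45 such genes among the 58721 identifiers counted in each library, of which 19831 were protein-coding: 4 of class A, 12 of class B and 29 of class C. The rule used names only and no measured value. Another 41 genes with such names are not protein-coding and were left out. DNAJC25-GNG10 is a read-through gene whose exon bases overlap other genes on the same strand for 99.8% of their length, and it had no counts in any library.

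DNAJ proteins, also called J-domain or HSP40 proteins, deliver unfolded or misfolded clients to HSP70 chaperones and stimulate HSP70 to hydrolyse ATP, which locks the client in place. Nucleotide exchange factors then release the client for a further round. Class A and class B proteins carry the J domain at the amino terminus and include the general cochaperones of the cytosol, while class C proteins share only the J domain and serve specialised sites such as the endoplasmic reticulum (ER), mitochondria, clathrin-coated vesicles and the ribosome. Some members, DNAJB1 among them, are induced by heat shock factor 1 (HSF1), and ER members such as DNAJB9 are induced by the unfolded protein response.

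All libraries came from A549, an established cell line of human lung adenocarcinoma, grown in DMEM or RPMI. Cells were transfected with 25 nM of siRNAs against the transcription factors MYBL2 (siMYBL2, 4 libraries) or FOXM1 (siFOXM1, 4 libraries) or with scrambled siRNA (siControl, 4 libraries). In a separate experiment they received siRNAs against both factors (siBoth, 3 libraries) or scrambled siRNA (siControl_Both, 3 libraries). In the last experiment cells were treated with 20 µM FDI-6, a small molecule described as an inhibitor of FOXM1, for 24 h (FDI6, 3 libraries) beside their control (control_FDI6, 3 libraries), which the study names as DMSO. The medium used in each experiment, the time after transfection and the share of each siRNA in the co-transfection are not given in the sources used here. All comparisons rest on this single line, and siMYBL2 and siFOXM1 share the siControl libraries.

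Between 16487394 and 30140550 read pairs per library were counted on genes. Pairs that did not align made up 9.09% to 10.9% of the siBoth libraries, 7.68% to 7.92% of siControl_Both and 1.73% to 3.03% of the others. MYBL2 fell from a mean of 153.7 CPM (library size scaled by TMM, the trimmed mean of M values) in siControl to 6.39 in siMYBL2, and FOXM1 from 126.1 to 12.1 in siFOXM1. In siBoth, MYBL2 was at 8.54 and FOXM1 at 13.2 CPM, against 173.9 and 137 in siControl_Both. With FDI-6 their means were 136.5 and 100.4 CPM, against 194.7 and 129.4 in the control. Of 5 epithelial markers, KRT8 and KRT18 were at 1020 CPM or above in every library, KRT19 was at 37.7 to 348.9 CPM, CDH1 at 9.51 to 90.3 CPM and EPCAM at 1.67 to 37.5 CPM. With FDI-6 the mean of KRT8 was 3083 CPM against 5404 in its control and that of CDH1 11.03 against 30.9. The alveolar type 2 markers SFTPC, SFTPB, SFTPA1 and NKX2-1 and the leukocyte marker PTPRC stayed under 0.33 CPM. The endothelial marker PECAM1 reached 2.81 CPM, and among the fibroblast markers DCN was near 0 while COL1A1 ranged from 4.91 to 58.8 CPM. The part of these markers in the results was not tested.

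The stretches of 150 bases before the start of the canonical transcript (hg38, GENCODE V44 starts) are shown for DNAJB1, DNAJB4, DNAJB9 and DNAJB14, whose values with FDI-6 or between the knockdowns differed. Capitals mark matches, on either strand, to the heat shock element as TTCNNGAA or GAANNTTC, to the CCAAT box (CCAAT) and to CCACG, the second part of the ER stress response element. The stretches lie at chr19:14518398-14518547 (minus strand), chr1:78004789-78004938 (plus strand), chr7:108569724-108569873 (plus strand) and chr4:99946619-99946768 (minus strand).
DNAJB1: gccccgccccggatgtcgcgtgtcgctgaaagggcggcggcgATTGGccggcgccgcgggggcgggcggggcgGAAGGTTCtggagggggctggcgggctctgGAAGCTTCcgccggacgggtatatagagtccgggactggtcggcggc
DNAJB4: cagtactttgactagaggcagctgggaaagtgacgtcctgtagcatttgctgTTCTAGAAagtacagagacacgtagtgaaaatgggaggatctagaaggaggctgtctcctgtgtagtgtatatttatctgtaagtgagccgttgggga
DNAJB9: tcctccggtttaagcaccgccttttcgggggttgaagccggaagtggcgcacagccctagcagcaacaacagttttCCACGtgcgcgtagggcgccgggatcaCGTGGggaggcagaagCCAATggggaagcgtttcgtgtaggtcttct
DNAJB14: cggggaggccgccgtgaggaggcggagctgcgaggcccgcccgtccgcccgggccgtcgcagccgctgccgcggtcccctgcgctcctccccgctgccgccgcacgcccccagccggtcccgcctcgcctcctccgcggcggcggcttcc
Within 250 bases of the start, DNAJB1 held GAANNTTC at 77 to 70 and at 47 to 40 bases before the start, CCAAT at 108 to 104 and CCACG at 183 to 179 bases. DNAJB4 held TTCNNGAA at 98 to 91 and CCACG at 174 to 170 bases before it. DNAJB9 held CCAAT at 31 to 27 bases and CCACG in both orientations, at 74 to 70 and 47 to 43 bases, before its start. The DNAJB14 window held none of these letters and was 84% G or C over the printed stretch, against 46% for DNAJB4. Of the named members not printed, DNAJA1, which passed in no comparison without the block, held GAANNTTC at 198 to 191 bases. DNAJB5, which was called with siBoth, held CCAAT and CCACG but neither heat shock form. Whether such matches go with the changes over all members was not tested. Over all 45 members, TTCNNGAA was found in 3 and GAANNTTC in 5, or 6.67% and 11.1%, against 5.37% and 4.68% of the 19831 protein-coding promoters. The form TTCNNGAANNTTC, which contains both shorter forms, was found only in DNAJB6 among members and in 0.318% of all promoters. CCAAT was in 40% of member promoters and in 34.4% of all, and CCACG in 57.8% and 39.1%. TTTGAA, a common form of the cell cycle gene homology region through which MYBL2 and FOXM1 complexes act, was found in 1 member promoter, that of DNAJC5B, and in 10.2% of all promoters. A match describes letters in this window and was not tested as a binding site.

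In the control groups DNAJA1, a general cytosolic cochaperone of HSP70, was the most abundant member per length. Its mean level was 171.7 CPM per kb of exon in siControl, 183.6 in siControl_Both and 153.5 in control_FDI6, and it made up 34% of the sum over the family. DNAJC8, a splicing-associated member, came next with 32.6, 29.9 and 34.4 CPM per kb. DNAJA2, at 28.7, 23.0 and 23.6, and DNAJB1, at 23.3, 25.8 and 25.3, followed, and their ranges over the control groups touched. The 4 class A genes held 42.7% of the family's sum, the 12 class B genes 17.4% and the 29 class C genes 39.9%. Median levels were 21.7 CPM per kb for class A, 5.23 for class B and 4.15 for class C. Length here is that of all annotated exons merged: 25053 bases for DNAJC10, 8188 for DNAJB1, 2892 for DNAJC8 and 2668 for DNAJA1. Undivided, the siControl means were 458.2 CPM for DNAJA1, 205.5 for DNAJC10, 190.3 for DNAJB1 and 94.2 for DNAJC8. The order of members and the class shares thus depend on this length, which can exceed that of the expressed transcript.

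Control groups of different experiments did not start from the same levels. DNAJB9, an ER protein that binds BiP and IRE1, was at 16.1 CPM per kb in siControl, 25.6 in siControl_Both and 4.34 in control_FDI6, a 5.9-fold range of means. DNAJC3, another ER cochaperone, was at 17.7, 18.2 and 6.13. DNAJC12, a cochaperone of aromatic amino acid hydroxylases, was at 25.4, 19.4 and 11.1. Experiment and control group cannot be told apart in these differences, so each treatment was compared only with its own control. At the low end, 8 members stayed under 1 CPM in every library: 1 of class A, 3 of class B and 4 of class C. DNAJB8 and DNAJC25-GNG10 had no counts at all.

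**Figure D1:**
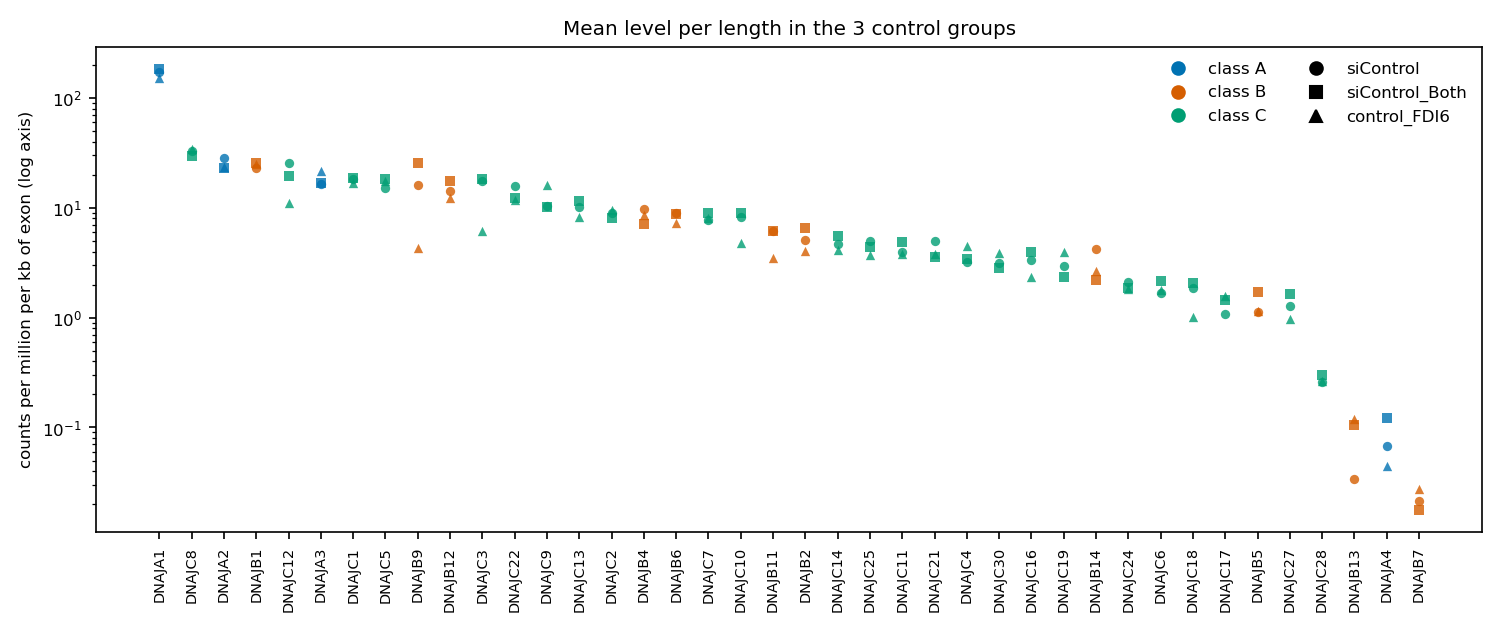
Mean CPM per kb of exon (log axis) of the 40 members with a mean of at least 0.01 in each control group, ordered by level and coloured by class, with 1 symbol per control group. DNAJA1 stands above all others, and the triangles of DNAJB9 and DNAJC3 lie well under their circles and squares.

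Few members passed the study's threshold of a fold over 1.5 with an adjusted p under 0.05 in edgeR's quasi-likelihood test. With siMYBL2 0 of 39 tested members passed, against 7.9% of all genes tested, although 14 had an unadjusted p under 0.05 and DESeq2 called 1 (DNAJB1). With siFOXM1 0 of 38 passed, by DESeq2 as well, against 0.667% of all genes, and 6 had an unadjusted p under 0.05. With siBoth 1 of 38 passed, DNAJB5, which was higher, against 6.44% of all genes. With FDI-6 2 of 36 passed, DNAJB9 and DNAJB14, both higher, against 13.8% of all genes. Class A had no member past this threshold in any comparison, class B had 3, and class C had none. Of the 45 members, 36 passed the filter on low counts in every comparison and 6 in none (DNAJB7, DNAJB8, DNAJB13, DNAJC5B, DNAJC5G and DNAJC25-GNG10). DNAJA4, DNAJC15 and DNAJC28 passed it in 2, 2 and 3 comparisons, with at most 28 counts in a library.

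With no minimum fold, a rule added after the values were seen, the share of members that changed lay close to that of all genes or under it in 3 of the comparisons. For siMYBL2, 2 members rose and 5 fell, 17.9% of the 39 tested, while 8.53% of all genes rose and 9.53% fell. For siFOXM1, 1 rose and 0 fell of 38, while 0.277% of all genes rose and 1.09% fell. For siBoth, 2 rose and 0 fell of 38, while 4.55% of all genes rose and 7.77% fell. For FDI-6, 10 rose and 3 fell, 36.1% of the 36 tested, while 21% of all genes rose and 17.9% fell. By class, FDI-6 changed 0 of 3 tested class A genes, 5 of 9 class B genes and 8 of 24 class C genes. With siMYBL2 these were 0 of 4, 2 of 9 and 5 of 26, with siFOXM1 0 of 3, 0 of 9 and 1 of 26, and with siBoth 0 of 4, 1 of 9 and 1 of 25. The median log2 fold change over tested members was 0.03 for siMYBL2, 0.00 for siFOXM1 and siBoth and 0.04 for FDI-6, beside 0.01, 0.00, 0.02 and −0.01 over all genes. Over the tested members it ran from −0.58 to 0.70 for siMYBL2, from −0.42 to 0.42 for siFOXM1, from −0.42 to 0.63 for siBoth and from −0.49 to 0.82 for FDI-6.

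Same-numbered libraries of treated and control groups deviated together in the 3 knockdown comparisons, and a fit with the replicate number as a block put more members past the adjusted p. With the block, 19 of 39 members had an adjusted p under 0.05 for siMYBL2, 15 of 38 for siFOXM1 and 13 of 38 for siBoth. For classes A, B and C these were 1 of 4, 6 of 9 and 12 of 26 with siMYBL2. They were 2 of 3, 7 of 9 and 6 of 26 with siFOXM1, and 0 of 4, 4 of 9 and 9 of 25 with siBoth. The shares over all genes in that fit were 46.7%, 26.3% and 34.8%. With the fold threshold as well, 1 member was called for siMYBL2 (DNAJC12), 0 for siFOXM1 and 1 for siBoth (DNAJB5), while 12.4%, 2.52% and 11.7% of all genes were. DNAJC12, named after its values were seen, had a log2 fold change of 0.70 with siMYBL2 (adjusted p = 0.141, and 7.88e-07 with the block). It was at 90.3, 72.8, 52.1 and 136.2 CPM in siMYBL2 replicates 1 to 4 and at 57.8, 44.3, 38.0 and 77.2 CPM in the same-numbered siControl libraries. Each siMYBL2 library was above its partner, but the groups overlapped. Treated and control groups did not overlap for 23.2% of all genes with siMYBL2, 9.33% with siFOXM1, 35.1% with siBoth and 51.6% with FDI-6. Among tested members this held for 7 of 39, 5 of 38, 16 of 38 and 19 of 36.

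**Figure D2:**
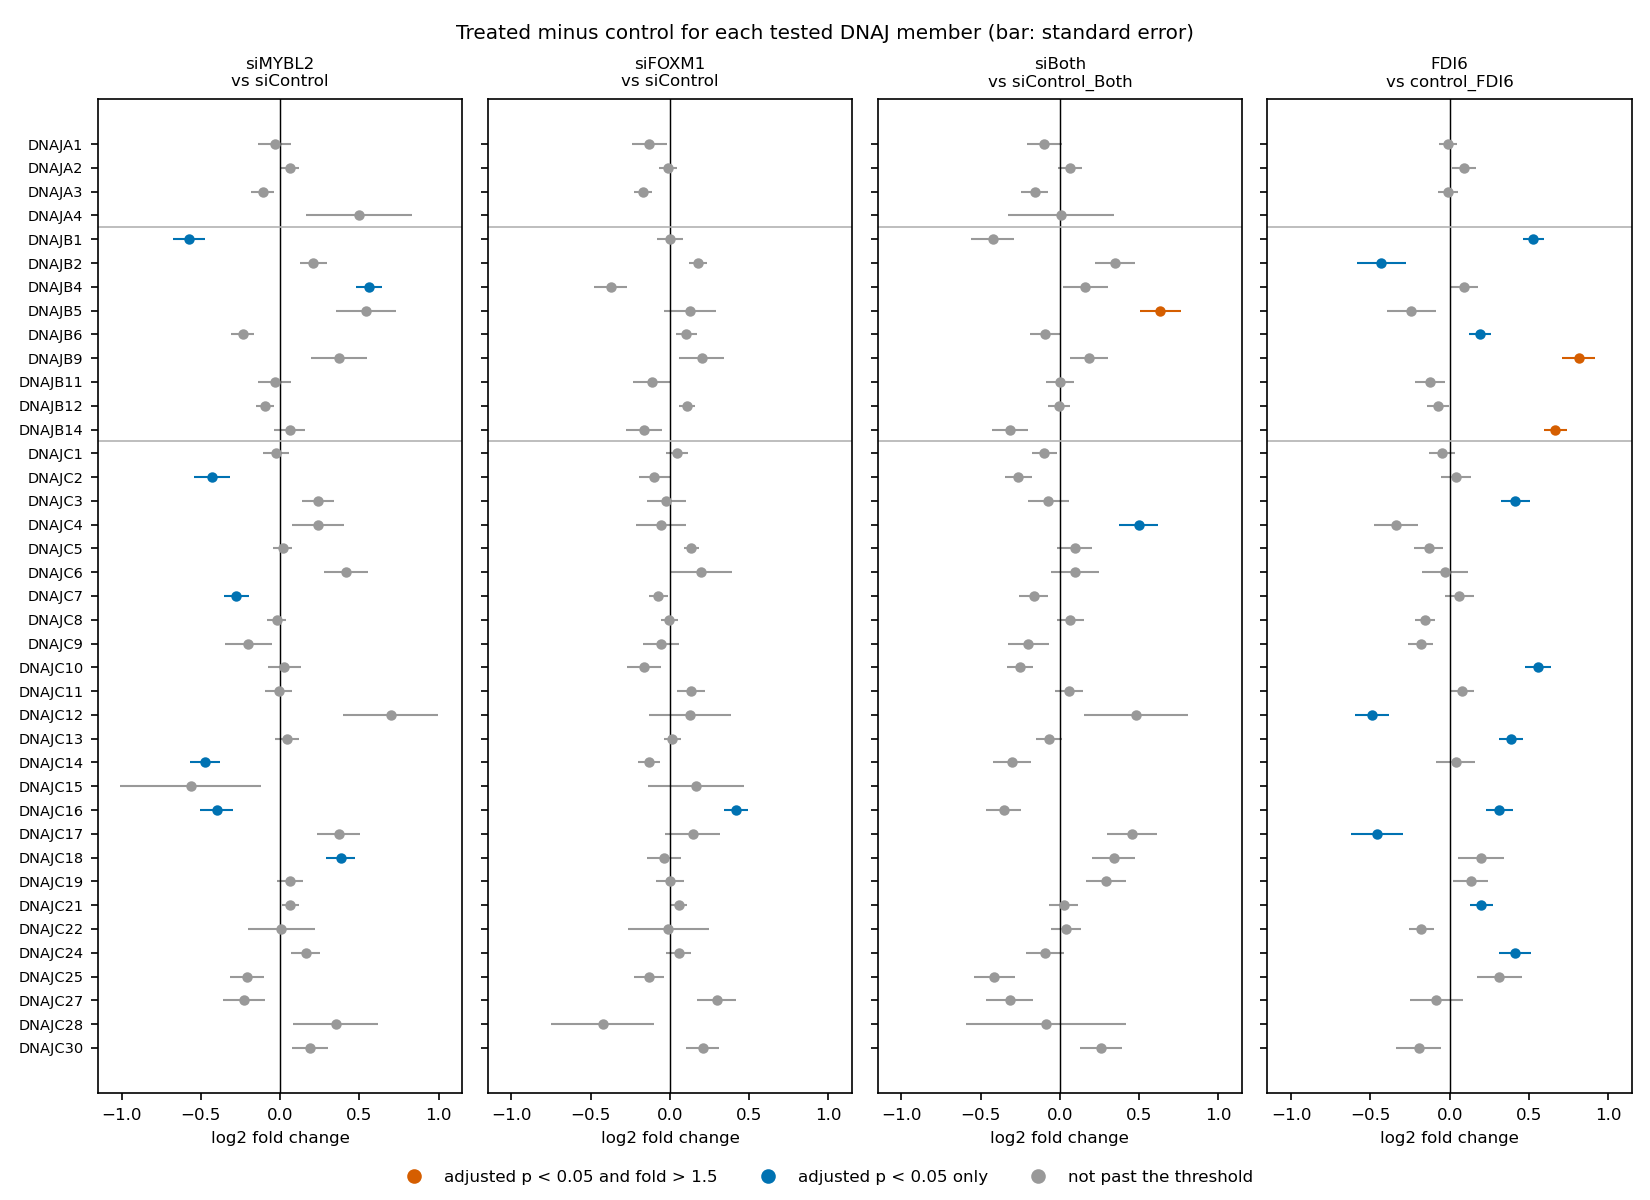
Log2 fold change, treated minus control, of each tested member in the 4 comparisons, with a bar of 1 standard error on each side and lines between classes A, B and C. Class A genes stay near 0 apart from the low DNAJA4, DNAJB1 lies left of 0 with siMYBL2 and siBoth and right of 0 with FDI-6, and DNAJB9 is the farthest right with FDI-6.

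Among the cytosolic members, DNAJB1 moved in opposite directions in the knockdown of MYBL2 and with FDI-6. DNAJB1 (ENSG00000132002.7, chromosome 19, 14514769 to 14560391, minus strand) encodes the main class B partner of HSP70 in the cytosol and is a classical heat shock gene. It was at 117.7, 152.1, 118.4 and 121.4 CPM in siMYBL2, and at 183.4, 214, 190 and 174 CPM in siControl. Every siMYBL2 library was under every siControl library. This was a log2 fold change of −0.58 (standard error, SE, 0.101, edgeR adjusted p = 0.0054), or 0.67 of the control level. Its level in siFOXM1 was 186.3, 209.3, 195.6 and 173.3 CPM, overlapping siControl, with a log2 fold change of 0.00 (SE 0.0834, edgeR adjusted p = 1.00).

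In the double knockdown DNAJB1 was at 156, 179.4 and 136.3 CPM in siBoth and at 203.6, 244.2 and 185.2 CPM in siControl_Both. The groups did not overlap, as for 35.1% of all genes, and the log2 fold change was −0.42 (SE 0.134, edgeR adjusted p = 0.0755 and 0.000131 in the blocked fit). With FDI-6 it was at 285, 291.5 and 321.3 CPM, all above the 215.7, 200.1 and 206.4 CPM of the control. This gave a log2 fold change of 0.53 (SE 0.0669, edgeR adjusted p = 0.000118), a 1.44-fold rise under the 1.5-fold threshold. Of its exon bases, 6.85% overlap genes on the opposite strand, and the strand setting of the counting is not given in the sources used here.

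DNAJB4 also had opposite signs, but between the single knockdowns. DNAJB4 (ENSG00000162616.8, chromosome 1, 77979175 to 78017964, plus strand) is another class B cochaperone of the cytosol, close to DNAJB1, and 2.11% of its exon bases overlap a same-strand gene. It was at 52.2, 54.1, 52.5 and 53.7 CPM in siMYBL2, at 28.7, 30.8, 23.5 and 28.7 CPM in siFOXM1, and at 32.4, 41.4, 34.7 and 35.6 CPM in siControl. The siMYBL2 libraries all lay above siControl and the siFOXM1 libraries all lay under it. Its change was 0.56 on the log2 scale with siMYBL2 (SE 0.0803, edgeR adjusted p = 0.0023). With siFOXM1 it was −0.37 (SE 0.104, edgeR adjusted p = 0.141 and 8.24e-06 in the blocked fit). DESeq2 gave an adjusted p of 0.0417 for the latter.

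In the double knockdown, where both factors were low, DNAJB4 was at 31.3, 30.1 and 27.7 CPM in siBoth against 23.5, 32.5 and 23.5 CPM in siControl_Both. With FDI-6 it was at 36.0, 32.0 and 34.6 CPM against 32.2, 29.5 and 34.5 CPM. The groups overlapped in each case, with log2 fold changes of 0.16 (edgeR adjusted p = 0.487) and 0.09 (edgeR adjusted p = 0.462), and the latter became −0.17 after a correction that removes each library's trend over the GC content and length of exons.

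DNAJA1 (ENSG00000086061.15, chromosome 9, 33025273 to 33039907, plus strand), the most abundant member, passed the test in none of the comparisons. Its level was 449.3, 499, 440.5 and 397.8 CPM in siMYBL2 and 400, 491.2, 401.9 and 389.2 CPM in siFOXM1, against 457.1, 540.8, 437.9 and 397.2 CPM in siControl. It was 452.3, 502.3 and 415.8 CPM in siBoth against 463.1, 549.7 and 456.6 CPM, and 410.1, 395.6 and 416.7 CPM in FDI6 against 409.5, 404.3 and 414.8 CPM. Treated and control groups overlapped throughout, and replicate 2 was the highest library in each of the 5 transfected groups. Log2 fold changes were −0.04, −0.13, −0.10 and −0.01 in the order siMYBL2, siFOXM1, siBoth and FDI-6, with edgeR adjusted p-values from 0.587 to 0.902. With the replicate block, the adjusted p for siFOXM1 was 0.0025.

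DNAJB5 (ENSG00000137094.14, chromosome 9, 34989641 to 34998900, plus strand), a less abundant relative of DNAJB1 and DNAJB4, rose in the double knockdown. It was at 14.8, 17.5 and 14.5 CPM in siBoth, all above the 9.31, 10.7 and 10.2 CPM of siControl_Both. The fitted change was 0.63 on the log2 scale (SE 0.13, edgeR adjusted p = 0.0195 and 0.0004 in the blocked fit). Leaving out siBoth replicate 2, or any 1 of the siControl_Both libraries, moved the adjusted p to between 0.0545 and 0.0687, and the change was 0.43 after the correction for GC content and length. With siMYBL2 it was at 9.47, 8.91, 12.7 and 7.74 CPM against 5.80, 6.17, 8.71 and 5.95 CPM, where the highest siControl library, replicate 3, lay above a siMYBL2 library. That log2 fold change was 0.54 (SE 0.192, edgeR adjusted p = 0.0831 and 0.000275 in the blocked fit). It was 0.13 with siFOXM1, at 7.25, 6.88, 8.77 and 6.33 CPM, and −0.24 with FDI-6, at 5.09, 6.06 and 5.95 against 7.26, 5.93 and 7.06 CPM, with edgeR adjusted p-values of 0.85 and 0.234.

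**Figure D3:**
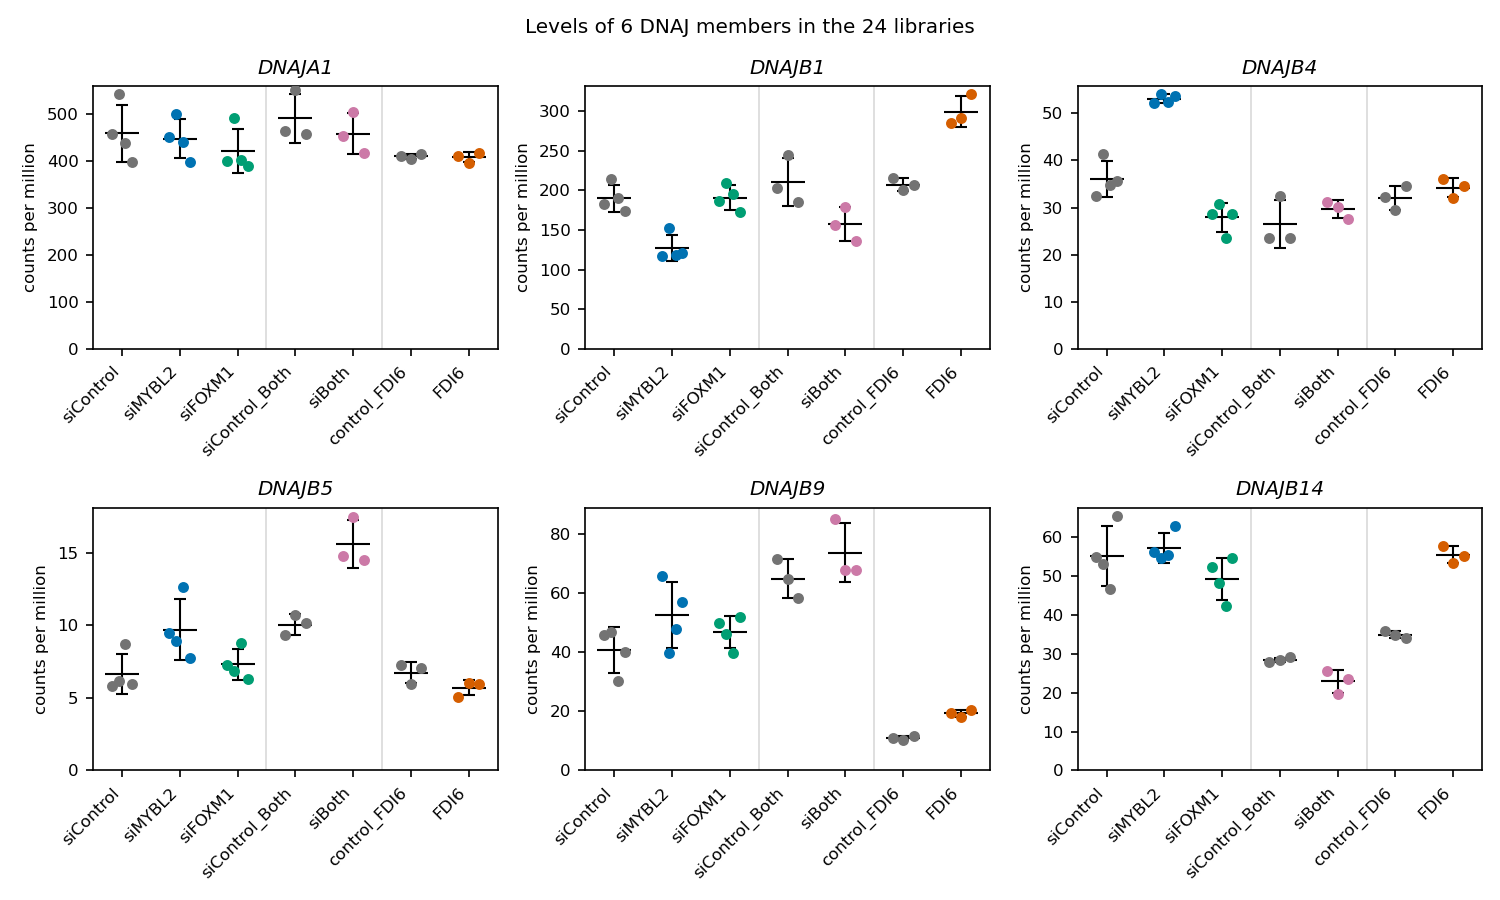
CPM in each of the 24 libraries (points) with the mean and SD of each group (bars) for 6 members, the controls in grey and the experiments parted by lines. DNAJA1 is level, DNAJB1 is lowest in siMYBL2 and highest in FDI6, and the whole FDI-6 experiment sits under the others for DNAJB9.

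Several ER members, in a list chosen with earlier results of these data known, rose with FDI-6. Of the 9 genes in the ER list, 5 rose and 0 fell with FDI-6, where 21% of all genes rose and 17.9% fell, with a median log2 fold change of 0.31, beside 0.04 for all tested members and −0.01 for all genes. In the knockdowns, 1 of the 9 rose and 1 fell with siMYBL2, 1 rose with siFOXM1 and none passed with siBoth, where 4 had an unadjusted p under 0.05. Of all genes, 18.1%, 1.4% and 12.3% passed in these knockdowns, in either direction. With the replicate block 3 rose and 1 fell, 3 rose and 3 fell, and 1 rose and 3 fell, in that order. The shares over all genes in that fit were 46.7%, 26.3% and 34.8%. After the correction for GC content and length the ER median with FDI-6 was 0.06, and 1 of the 9 rose and 1 fell.

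DNAJB9 (ENSG00000128590.4, chromosome 7, 108569867 to 108574850, plus strand) had the largest change of any member with FDI-6. It was at 19.5, 18.2 and 20.5 CPM in FDI6, all above the 11.1, 10.4 and 11.5 CPM of the control. The log2 fold change came to 0.82 (SE 0.104, edgeR adjusted p = 0.000128), or 1.76-fold, and 0.60 after the correction (edgeR adjusted p = 0.000235). Even so, its level with FDI-6 stayed under every library of the other experiments. Those libraries ran from 30.3 CPM in siControl to 85.4 CPM in siBoth.

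In the knockdowns DNAJB9 did not pass without the block. It was at 65.9, 39.9, 47.8 and 57.2 CPM in siMYBL2 and 50.02, 46.4, 39.7 and 52.1 CPM in siFOXM1, against 45.9, 47, 30.3 and 40.2 CPM in siControl. In siBoth it was at 85.4, 68.1 and 68.1 CPM against 71.5, 65.0 and 58.6 CPM. All of these groups overlapped. The log2 fold changes were 0.37, 0.20 and 0.19, with edgeR adjusted p-values of 0.181, 0.643 and 0.332, and of 0.0143, 0.005 and 0.0661 with the replicate block.

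DNAJB14 (ENSG00000164031.16, chromosome 4, 99896248 to 99946618, minus strand), an ER membrane protein whose J domain faces the cytosol, was at 57.7, 53.3 and 55.2 CPM with FDI-6 and at 35.8, 34.7 and 34.0 CPM in the control. The groups did not overlap, which held for 51.6% of all genes with FDI-6. On the log2 scale the change was 0.67 (SE 0.0753, edgeR adjusted p = 5.14e-05). After the correction it was 0.14 (edgeR adjusted p = 0.163), so that the call was lost. DNAJB14 has the lowest exon GC content of the members, 33.1%.

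With siBoth DNAJB14 was at 25.5, 19.7 and 23.5 CPM, all under the 27.9, 28.4 and 29.01 CPM of siControl_Both. Its change was −0.31 on the log2 scale (SE 0.114, edgeR adjusted p = 0.109 and 0.017 in the blocked fit). In siMYBL2 it was at 56.1, 54.5, 55.4 and 62.8 CPM and in siFOXM1 at 52.1, 48.1, 42.1 and 54.5 CPM, against 54.8, 53.1, 46.7 and 65.2 CPM in siControl. Those groups overlapped, with log2 fold changes of 0.06 and −0.16 and edgeR adjusted p-values of 0.723 and 0.625, and the latter was 0.0048 with the block.

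The other ER genes that rose with FDI-6 were of class C. DNAJC10, a thioredoxin-domain reductase that helps degrade misfolded ER proteins, rose from 120.9 ± 4.35 to 178 ± 21.7 CPM (SD, n = 3 each), a log2 fold change of 0.56. DNAJC3, which binds misfolded proteins in the ER lumen and inhibits the kinase PERK, rose by 0.41, and DNAJC16 by 0.31. The edgeR adjusted p-values of these were 0.000385, 0.0037 and 0.0147. None of the 3 passed after the correction, where their log2 fold changes were 0.06, 0.14 and 0.10. DNAJB11, the lumenal cochaperone of BiP, did not pass, at −0.12, and it was −0.47 after the correction.

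DNAJC16 differed in sign between the single knockdowns. It fell with siMYBL2, from 28.6 ± 2.26 CPM in siControl to 21.6 ± 2.78 CPM (SD, n = 4 each), a log2 fold change of −0.40 (edgeR adjusted p = 0.0269). It rose with siFOXM1 to 38.3 ± 2.27 CPM (SD, n = 4), a log2 fold change of 0.42 (edgeR adjusted p = 0.0324). Neither siRNA group overlapped siControl. When 1 library was left out, the adjusted p no longer passed in 5 of 8 fits for siMYBL2 and in 6 of 8 for siFOXM1, reaching 0.0781 and 0.127. Those fits had no block and kept the same-numbered partner of the library left out. With all libraries and the replicate block the edgeR adjusted p of DNAJC16 was 0.00058 for siMYBL2 and 4e-07 for siFOXM1. In that fit 46.7% and 26.3% of all genes passed. DNAJC18, an ER membrane member, rose with siMYBL2 by 0.38 (edgeR adjusted p = 0.0206, and 0.00096 with the block). Without the block it did not pass in 4 of 8 fits that left out 1 library.

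Of the 5 members in the ribosome and nucleus list, 1 fell and none rose with siMYBL2. DNAJC2, a ribosome-associated cochaperone, fell from 60.2 ± 6.69 to 44.6 ± 5.7 CPM (SD, n = 4 each), a log2 fold change of −0.43 (edgeR adjusted p = 0.0292), although a gene on the opposite strand covers 20.9% of its exon bases. It did not pass in 6 of the 8 fits that left out 1 library, where the adjusted p reached 0.08. With all libraries and the replicate block its edgeR adjusted p was 1.79e-05. With FDI-6, DNAJC21, a ribosome biogenesis factor, rose by 0.20 and DNAJC17, a nuclear member with 27.9% of its exon bases overlapped on the opposite strand, fell, with a log2 fold change of −0.46 (edgeR adjusted p = 0.045 and 0.0444). After the correction DNAJC21 was at −0.18 and neither passed, and both also lost the call when any 1 control library was left out. The other members of the list, DNAJC2, DNAJC8 and DNAJC9, were lower after the correction, at −0.28, −0.26 and −0.36 (edgeR adjusted p = 0.0051, 0.0017 and 0.000637), and did not pass without it. For DNAJC9, a gene on the opposite strand covers 56.5% of the exon bases.

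Few mitochondrial or vesicle members passed. Of the 5 mitochondrial genes, 0 of 5 tested passed with siMYBL2, 0 of 5 with siFOXM1, 0 of 4 with siBoth and 0 of 4 with FDI-6. Their unadjusted p was under 0.05 for 0, 1, 1 and 0 of them, and 1, 2 and 0 passed with the replicate block in the 3 knockdowns. Of the vesicle and endosome list only DNAJC13, an endosomal sorting protein, passed, with a log2 fold change of 0.39 with FDI-6 (edgeR adjusted p = 0.0018), and it was 0.07 after the correction. In the knockdowns 1, 1 and 0 of the 3 tested members of that list passed with the block. Among members outside these lists, DNAJC7, which acts with HSP70 and HSP90, fell with siMYBL2. Its log2 fold change was −0.28 (edgeR adjusted p = 0.0374, and 0.00026 with the block). That call was lost with upper-quartile scaling (0.0702), with no filter on low counts (0.0615) and in 6 of 8 fits that left out 1 library. DNAJC14, with 34.9% of its exon bases overlapped on the opposite strand, fell with siMYBL2, with a log2 fold change of −0.47 (edgeR adjusted p = 0.0086), and passed in all 8 such fits. DNAJC4 rose with siBoth by 0.50 (edgeR adjusted p = 0.0385, and 0.0042 with the block). It was at 0.24 after the correction, where it did not pass, nor did it in any of the 6 fits that left out 1 library.

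Further changes with FDI-6 were of mixed direction. DNAJB6, a suppressor of aggregation, rose by 0.19 and DNAJC24, a factor of diphthamide synthesis, by 0.41 on the log2 scale. DNAJB2, a neuronal-enriched cochaperone that targets clients to the proteasome, had a log2 fold change of −0.43 and DNAJC12 of −0.49. Adjusted p-values were 0.0496, 0.0075, 0.0471 and 0.0039. DNAJC12 and DNAJB2 still passed after the correction, at −0.65 and −0.32, whereas DNAJB6 and DNAJC24 were at 0.03 and 0.00. Leaving out 1 library lost the call of DNAJB6 in 5 of 6 fits and that of DNAJB2 in 4 of 6.

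The FDI-6 changes followed exon GC content. Over the 36 tested members, the rank correlation of log2 fold change with the GC content of the exons was −0.53, and it was −0.49 over 15176 genes. Both are descriptions over genes that share libraries. For siMYBL2, siFOXM1 and siBoth the values over members were −0.08, 0.26 and 0.21, beside 0.06, 0.08 and 0.32 over all genes. The siBoth changes thus had a trend of the opposite sign. Of the 10 members that rose with FDI-6, DNAJB1 has an exon GC content of 55.7% while DNAJB9 and DNAJB14 have 37.3% and 33.1%. When each library's trend over GC content and length was removed, the correlation over members was 0.02. In that fit 2 members rose, DNAJB1 and DNAJB9, and 8 fell, in all 10 of 36, against 36.3% of all genes. By class these were 1 of 3 in class A, 4 of 9 in class B and 5 of 24 in class C. The sign of 11 of the 36 turned, and DNAJA2 and DNAJC2, at 0.09 and 0.04 before, were lower by the test at −0.15 and −0.28. The share of higher calls thus went from 10 of 13 to 2 of 10. Over all genes it moved the same way, from 3200 higher and 2735 lower to 2153 higher and 3374 lower. Whether the trend was biological or came from library preparation was not tested.

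**Figure D4:**
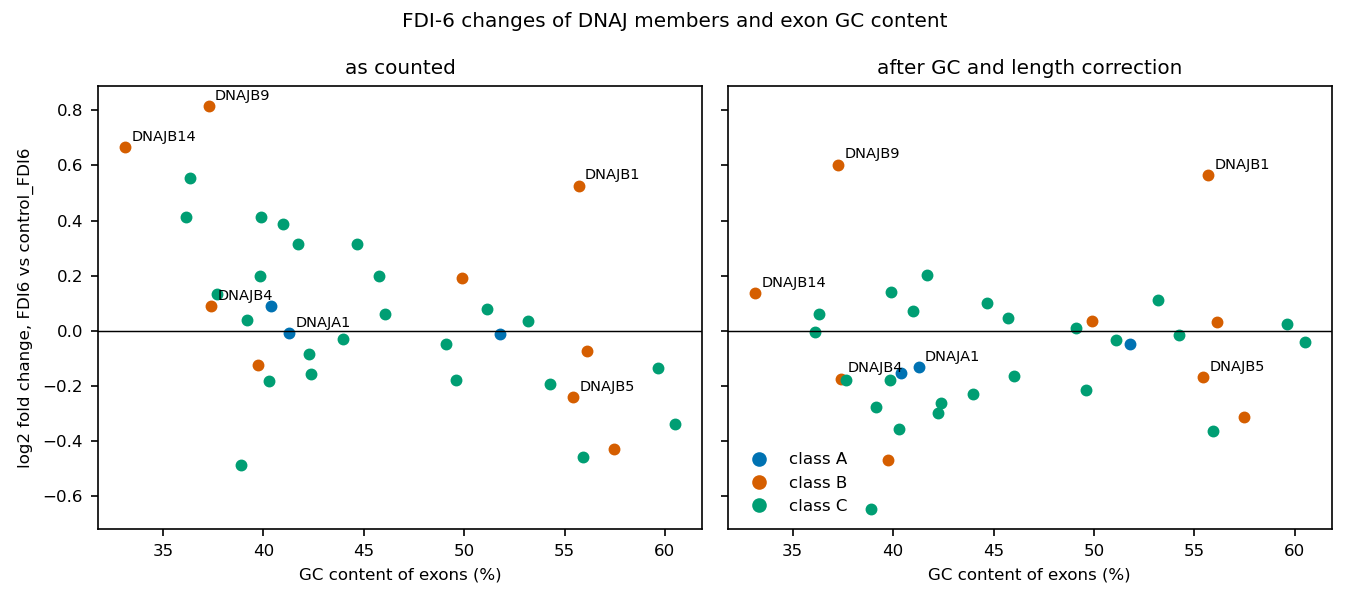
Log2 fold change with FDI-6 of the 36 tested members against the GC content of their exons, as counted (left) and after the correction for GC content and length (right), coloured by class. The slope on the left is gone on the right, where DNAJB1 and DNAJB9 stay at about 0.6 and DNAJB14 drops to 0.14.

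Differences between treatment effects were tested directly in a fit of all 24 libraries. FDI-6 minus siFOXM1, which sets the compound against knockdown of its named target, passed for 7 of 40 members, 6 higher and 1 lower, against 20% of all genes. FDI-6 minus siBoth passed for 13, 9 higher and 4 lower, against 29.5%. The 9 include DNAJC15, which did not pass the filter on low counts with siBoth or FDI-6. FDI-6 minus siMYBL2, added after the values were seen, passed for 14, 10 higher and 4 lower, against 25.1%. The difference siBoth minus siMYBL2 passed for 0 members, against 0.304% of all genes, with 2 at an unadjusted p under 0.05 and 3 past the threshold with the replicate block. A direct comparison of siMYBL2 with siFOXM1, also added, passed for 9 of 39, 2 higher and 7 lower in siMYBL2, against 23.2%. With the GC and length correction, 2, 8 and 9 members passed in the differences from siFOXM1, siBoth and siMYBL2, in that order. The share of all genes that passed was not worked out for that fit or for the blocked one.

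DNAJB1 differed between FDI-6 and every knockdown. The difference of log2 fold changes was 0.52 from siFOXM1 (SE 0.153, edgeR adjusted p = 0.0187), 0.95 from siBoth (SE 0.164, edgeR adjusted p = 0.000159) and 1.11 from siMYBL2 (SE 0.153, edgeR adjusted p = 2.3e-05). It still passed after the correction, at 0.61, 1.17 and 1.23. DNAJB14 differed by 0.83, 0.98 and 0.61 in the same order and did not pass after the correction, at 0.25, 0.34 and 0.16. DNAJB9 differed from siBoth by 0.63 (edgeR adjusted p = 0.0471), which was 0.36 and did not pass after the correction (edgeR adjusted p = 0.273), and from siFOXM1 by 0.61 (edgeR adjusted p = 0.0574) and siMYBL2 by 0.45 (edgeR adjusted p = 0.149).

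Between the single knockdowns, DNAJB4 was higher in siMYBL2 than in siFOXM1 by 0.93 (SE 0.0825, edgeR adjusted p = 0.000149). DNAJC16 was lower, with a difference of −0.82 (SE 0.0957, edgeR adjusted p = 0.000491) and so was DNAJB1, with −0.58 (SE 0.0981, edgeR adjusted p = 0.0032). None of the 4 siMYBL2 libraries overlapped the 4 siFOXM1 libraries for these 3 genes. Over 38 members, log2 fold changes with siMYBL2 and with siBoth, which have separate controls, had a rank correlation of 0.78, beside 0.69 over 15355 genes. Those with FDI-6 and siBoth had a rank correlation of −0.50 over 36 members (−0.41 after the correction), beside −0.21 over 14749 genes.

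Stress-inducible HSP70 partners rose with FDI-6. Of 12 HSP70 genes, 7 rose and 1 fell with FDI-6, where 21% of all genes rose and 17.9% fell, and after the GC and length correction 5 rose and 3 fell. None passed by edgeR with siMYBL2 and siFOXM1, where 1 and 2 had an unadjusted p under 0.05, and 1 fell with siBoth. With the replicate block 1 rose and 5 fell with siMYBL2, 2 rose and 4 fell with siFOXM1 and 2 fell with siBoth. In that fit 46.7%, 26.3% and 34.8% of all genes passed. HSPA13 with siFOXM1 was at −0.58 (edgeR adjusted p = 0.119, and 7.3e-11 with the block). HSPA6, a strictly stress-inducible HSP70, was at 90.3, 104 and 152 CPM with FDI-6 and at 0.65, 1.11 and 0.377 CPM in the control, a log2 fold change of 7.30 (SE 0.284, edgeR adjusted p = 2.68e-08). Its siControl_Both libraries were at 5.83, 11.4 and 3.49 CPM and its siControl libraries at 0.338 to 3.03 CPM. HSPA1B rose by 0.67 and HSPA1A by 0.55, near-identical copies whose pairs HTSeq can assign only in part. HSPA13, an ER-associated HSP70, rose by 0.90, and HSPA2 fell from between 156.4 and 159.5 CPM to between 85.3 and 96.1 CPM, with a log2 fold change of −0.83.

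Of 13 nucleotide exchange factors, 6 rose and 2 fell with FDI-6, where 21% of all genes rose and 17.9% fell. After the correction 2 rose and 4 fell, against 36.3% of all genes in either direction. With the block 5 fell with siMYBL2, 2 rose with siFOXM1, and 1 rose and 4 fell with siBoth. The shares over all genes in that fit were 46.7%, 26.3% and 34.8%, so these counts are close to the background or under it. BAG3, a heat-inducible one, rose by 0.46 and HSPH1 by 0.35, and BAG1 was at −0.58, with HSPH1 at −0.02 after the correction. Knockdown of MYBL2 lowered BAG1 and BAG5, at −0.35 and −0.32. HSF1, the factor that drives heat shock genes, was at 65.8, 70.4, 65.5 and 62.0 CPM in siMYBL2 and at 112.7, 102.7, 106.7 and 95.6 CPM in siControl, with no overlap. It changed by −0.66 on the log2 scale (SE 0.0696, edgeR adjusted p = 0.000525). With siBoth it was at −0.23 (edgeR adjusted p = 0.254), and it passed there with the block (edgeR adjusted p = 0.016) and after the correction, at −0.45 (edgeR adjusted p = 0.02). It did not pass with siFOXM1 or FDI-6 in those fits. Whether the level of HSF1 bears on DNAJB1 was not tested. In these bulk libraries, a change in how many cells express a gene and a change in RNA per cell cannot be told apart.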

How the data were processed

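According to the study's methods, the authors trimmed the reads with Trim Galore, used STAR for alignment to hg38 and HTSeq for counting over GENCODE V29 (versions not given in the sources used here). Per the labels, the libraries were made from polyA RNA. The deposited values are whole-number counts per gene and library, not normalized. Pairs with several possible genes or places are not assigned by HTSeq, and 18.5% to 26.2% of pairs per library were not counted on a gene. Those totals stayed out of library sizes. The strand setting is not given in the sources used here.

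Groups and replicate numbers came from the sample labels, and the study describes biological replicates. The lowest chi-square per gene between libraries of a group was 3.57, so none was taken as a second deposit. Identifiers were matched without version to GENCODE V44 (58207 matched, 514 not). Each comparison was fitted alone in edgeR 4.0.16 (R 4.3.3) with TMM, filterByExpr, no block, the quasi-likelihood test and Benjamini-Hochberg adjustment over all genes tested, and a gene was called when its fold was over 1.5 with an adjusted p under 0.05. Differences of effects came from a fit of 7 groups at an adjusted p under 0.05. CPM values use TMM factors over all 24 libraries, so ratios of CPM can differ slightly from the fitted changes, and CPM per kb divides by the merged exon length. The standard error is the log2 fold change over the root of its F statistic. Counts were simulated for siMYBL2 against siControl (15849 genes past the filter). The calls recovered 40 of 43 genes lowered and 48 of 50 raised by 2 on the log2 scale. For changes of 1 they recovered 29 of 48 lowered and 37 of 50 raised. Changed genes that failed the filter are left out of these numbers. The simulated libraries had no shared replicate effect, and every tested member had a smaller fitted change against its control. The shares therefore do not describe recovery for members.

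Same-numbered libraries, paired by the labels' replicate numbers, deviated together in the knockdowns (lowest correlation over genes 0.57 for siMYBL2, 0.54 for siFOXM1 and 0.55 for siBoth) but not with FDI-6 (−0.29). The alternatives tried were the replicate block, a minimum of 10 counts in all libraries, no minimum, upper-quartile or RLE factors, glmTreat, DESeq2 1.42.0, each library left out, and a correction that fits each library's trend over exon GC content and length (5 degrees of freedom each, from genes averaging 50 counts or more). Named genes were DNAJA1, DNAJB1, DNAJB4 and every member called in a comparison, and further members by rules added after the values were seen. The members and lists were chosen with earlier results of these data known.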

Additional observations from a re-analysis of the deposited data

Results flagged for a closer look

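In 3 of the 18 sets of 4 libraries looked at for DNAJA1, DNAJB1, DNAJB4, DNAJB5, DNAJB9 and DNAJB14, 1 library stood apart from the other 3, where chance gives about 1 in 20. DNAJA1 was at 491.2 CPM in siFOXM1 replicate 2, DNAJB1 at 152.1 CPM in siMYBL2 replicate 2, and DNAJB5 at 8.71 CPM in siControl replicate 3. Without siMYBL2 replicate 2 the log2 fold change of DNAJB1 with siMYBL2 was −0.68 and passed the fold threshold. Without siControl replicate 3 that of DNAJB5 was 0.69 and passed both thresholds. Replicate 2 was also highest for DNAJB1 in siControl (214 CPM) and siFOXM1 (209.3 CPM), and replicate 3 for DNAJB5 in siMYBL2 (12.7 CPM). These fits left out a library but kept its same-numbered partner. With all libraries and the replicate block the changes were −0.58 for DNAJB1 and 0.54 for DNAJB5.

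Effects that differed between treatments by a test of the difference itself were as follows, in log2 units and at an edgeR adjusted p under the threshold. FDI-6 minus siFOXM1 was 0.52 for DNAJB1, 0.46 for DNAJB4 and 0.83 for DNAJB14. FDI-6 minus siBoth was 0.95 for DNAJB1, −0.87 for DNAJB5, 0.63 for DNAJB9, 0.98 for DNAJB14 and 0.67 for DNAJC16. FDI-6 minus siMYBL2 was 1.11 for DNAJB1, −0.47 for DNAJB4, −0.78 for DNAJB5, 0.61 for DNAJB14 and 0.72 for DNAJC16. The direct difference of siMYBL2 from siFOXM1 was −0.58 for DNAJB1, 0.93 for DNAJB4 and −0.82 for DNAJC16. After the correction for GC content and length, DNAJB1 and DNAJC16 still passed in each of these differences from FDI-6, and DNAJB4 passed in that from siMYBL2 but not in that from siFOXM1. DNAJB5 from siBoth and from siMYBL2 (edgeR adjusted p = 0.0733 and 0.0538), DNAJB9 from siBoth (0.273) and DNAJB14 in all 3 no longer passed.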

How the results depend on the processing

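The number of members called with siMYBL2, 0, became 1 with DESeq2 (DNAJB1), upper-quartile scaling (DNAJB4), the replicate block (DNAJC12) and the correction for GC content and length (DNAJB1), and 2 with that correction and the block. It ran from 0 to 1 when each library was left out, with DNAJB1 called without siMYBL2 replicate 2 or siControl replicate 1 or 4, DNAJB4 without siControl replicate 2 and DNAJB5 without siControl replicate 3. With siFOXM1 the number stayed at 0 in every alternative. With siBoth it was 1, DNAJB5, and 0 with glmTreat. It ran from 0 to 1 over left-out libraries, being 0 without siBoth replicate 2 or any 1 of the siControl_Both libraries. After the GC and length correction the 1 call was DNAJB1 in place of DNAJB5. With FDI-6 it was 2, 0 with glmTreat, and 2 to 5 over left-out libraries, with 5 without FDI6 replicate 3. After the correction the 2 were DNAJB9 and DNAJC12. glmTreat tests against the 1.5-fold change itself.

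The differences of effects passed for 7 (FDI-6 minus siFOXM1), 13 (FDI-6 minus siBoth), 0 (siBoth minus siMYBL2) and 14 (FDI-6 minus siMYBL2) members, and the direct comparison of siMYBL2 with siFOXM1 for 9. With the replicate block within each experiment the numbers were 15, 20, 3, 20 and, in the direct comparison, 20. Shares over all genes were not worked out for these alternative fits, so a change in number may not be particular to members. With the GC and length correction the 3 that involve FDI-6 were 2, 8 and 9. Over left-out libraries they ran from 4 to 10, 11 to 14, 0 to 0 and 10 to 16, and from 4 to 9 in the direct comparison. The first was 4 without FDI6 replicate 1, and the last was 5 without siMYBL2 replicate 1 and 4 without siFOXM1 replicate 1. The cause was not tested.

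Over all tested members, 151 values in the 4 comparisons, the sign turned for 25 with the GC and length correction, 13 with upper-quartile scaling, 3 with DESeq2 and 1 with the replicate block (DNAJC19 with siFOXM1, near 0 in both). Among the named members it turned as follows. With the GC and length correction, without and with the block, DNAJB14 with siMYBL2 was −0.018 and −0.015, DNAJB1 with siFOXM1 was −0.062 and −0.060, and with FDI-6 DNAJB4 was −0.17 and −0.17, DNAJC21 −0.18 and −0.18 and DNAJC24 −0.0034 and −0.0053. DNAJB1 with siFOXM1 was also −0.0011 with DESeq2, −0.00016 with RLE scaling and −0.0068 with no filter, and DNAJA1 with siMYBL2 was 0.016 with upper-quartile scaling. Leaving out a library turned the sign of DNAJA1 with siMYBL2 (−0.11 to 0.046) and with FDI-6 (−0.031 to 0.0092), of DNAJB1 with siFOXM1 (−0.047 to 0.063) and of DNAJB14 with siMYBL2 (−0.015 to 0.14). Low counts left 6 members untested in the comparisons with a control. Of these DNAJB13, with 0 to 11 counts per library, entered the fit of all 24 libraries, and no result is drawn from it.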

Other observations

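Some members that passed in no comparison with a control differed between treatments. DNAJB12, an ER membrane cochaperone, was lower in siMYBL2 than in siFOXM1, with a difference of −0.21 (edgeR adjusted p = 0.023) and DNAJC27, a small GTPase with a J domain, with −0.53 (edgeR adjusted p = 0.0308) on the log2 scale. DNAJC25 had a higher effect with FDI-6 than with siBoth by 0.73 (edgeR adjusted p = 0.0029), and it still passed after the correction for GC content and length (edgeR adjusted p = 0.0056), although 13.8% of its exon bases overlap another gene on the same strand. DNAJC15, a mitochondrial member with 1 to 28 counts per library, did not pass the filter on low counts with siBoth or FDI-6. Its counts were 5, 2 and 2 in FDI6 against 1, 1 and 1, and 6, 7 and 6 in siBoth against 23, 10 and 10. It entered the fit of all 24 libraries, where other groups hold more counts. No result is drawn from its difference of 2.91 between these treatments (standard error 1.05).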
